A study of Sus scrofa with 18 samples.

Results

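Exosomes isolated from HC-P skeletal muscle were compared with HC-P muscle tissue for their content of mature microRNAs (miRNAs), the short RNAs that guide Argonaute proteins to messenger RNAs. The members are all 465 miRNA entries of the read count table, taken in the 3 HC-P exosome libraries and the 3 HC-P tissue libraries, which are 6 of the 12 small RNA libraries of the series. The other 6 are 3 exosome and 3 tissue libraries of the HC-L muscle. Of the 465 entries, 355 carry a miRBase name and 110 are predictions that the authors numbered, 422 had a read in at least 1 of the 6 libraries, and 252 passed the filter on low counts and were tested. The 170 entries with reads that were not tested held at most 0.040% of the reads of any of these libraries.

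All animals were adult Hechuan black pigs, castrated sows by the labels, with no further treatment named. HC-P tissue is skeletal muscle extracted with Trizol. HC-P exosomes (Y-Exo in the labels) came from muscle cleared of fascia and fat that was minced, homogenised, cleared by centrifugation, passed through a fine filter and purified with a commercial kit, and their RNA was extracted with Trizol LS. The vesicles were therefore released from homogenised tissue and not collected from a culture medium. The labels do not say which of the muscles HC-L and HC-P is oxidative and which glycolytic, nor whether replicates came from separate pigs, so the p-values measure the spread between these libraries, which may be technical. The kind of sample, the RNA reagent and the sequencing depth all differ together between the groups and cannot be told apart.

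A miRNA hairpin is cut into a duplex whose strands are named 5p and 3p. One strand is usually kept by Argonaute, while the other is mostly degraded. Exosomes are small vesicles that carry a part of the cell's RNA, and skeletal muscle is known for a set of muscle-enriched miRNAs (miR-1, miR-133a, miR-133b, miR-206, miR-208b, miR-499 and miR-486) that act in myoblast growth and fibre identity.

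Tissue libraries held 3964875, 6507823 and 6690912 miRNA reads and exosome libraries 959599, 168341 and 106040, in the order of replicates 1, 2 and 3, which is used for every set of 3 values below. CPM is the read count scaled to a fixed number of miRNA reads per library. By library totals alone, a count of 3 reads is 0.448 to 0.757 CPM in tissue but 3.13 to 28.3 CPM in exosomes. All other CPM values here are also divided by a scaling factor per library, 1.14, 1.40 and 2.03 in exosomes, which lowers this floor there. Low levels are thus measured far less precisely in exosomes. The muscle-enriched list took 50.1% to 81.2% of the tissue reads and 54.7% to 66.5% of the exosome reads, so muscle miRNAs led in both kinds of sample. Without tissue replicate 1, described next, the tissue share was 74.4% to 81.2%, above every exosome library. No measure of vesicle identity is among the values used here. Tissue replicate 1 stood apart. Its counts correlated with those of tissue replicates 2 and 3 across miRNAs with Spearman rho of 0.846 and 0.830, against 0.982 between replicates 2 and 3, and leaving it out lowered the common dispersion of the edgeR fit from 0.346 to 0.190. The results the text turns on are therefore given with all 6 libraries and without tissue replicate 1.

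With all 6 libraries, 65 of the 252 miRNAs tested differed between exosomes and tissue (25.8%, edgeR quasi-likelihood test, Benjamini-Hochberg adjusted p under 0.05). Of these, 23 were higher in exosomes (9.13% of those tested) and 42 were lower (16.7%). Without tissue replicate 1, 83 of 221 differed (37.6%), with 35 higher (15.8%) and 48 lower (21.7%). Of the 23 higher calls, 22 were kept without that library and the other, miR-219b-3p, was no longer tested. Of the 42 lower calls, 29 were kept, 10 ended and 3 were no longer tested, while 13 higher and 19 lower calls appeared. Leaving out any other HC-P library lowered the count, to 43 without tissue replicate 2 or 3, and to 41, 31 and 35 without exosome replicate 1, 2 and 3. A fit of the 6 HC-P libraries alone called 26. Of the 23 higher calls 11 held in all 6 fits with an HC-P library left out, and of the 42 lower calls 10.

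The balance of higher and lower calls depended on how the libraries were scaled to each other. The values above use the trimmed mean of M-values (TMM), which gave a median log2 fold change of -0.70 over all miRNAs tested, and -0.08 without tissue replicate 1. With library totals alone 31 of 36 calls were higher and 5 lower, and with DESeq2 35 of 65 were higher and 30 lower. The fits were therefore also compared over 12 combinations, namely edgeR with TMM, library totals, RLE size factors, totals without the 3 most abundant miRNAs and upper quartiles, and DESeq2, each with and without tissue replicate 1. In all 12, the same 20 miRNAs were called higher in exosomes (7.94% of the 252) and 3 were called lower (1.19%). This rule was chosen after the values were seen, and the 20 and the 3 are described first.

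**Figure D1:**
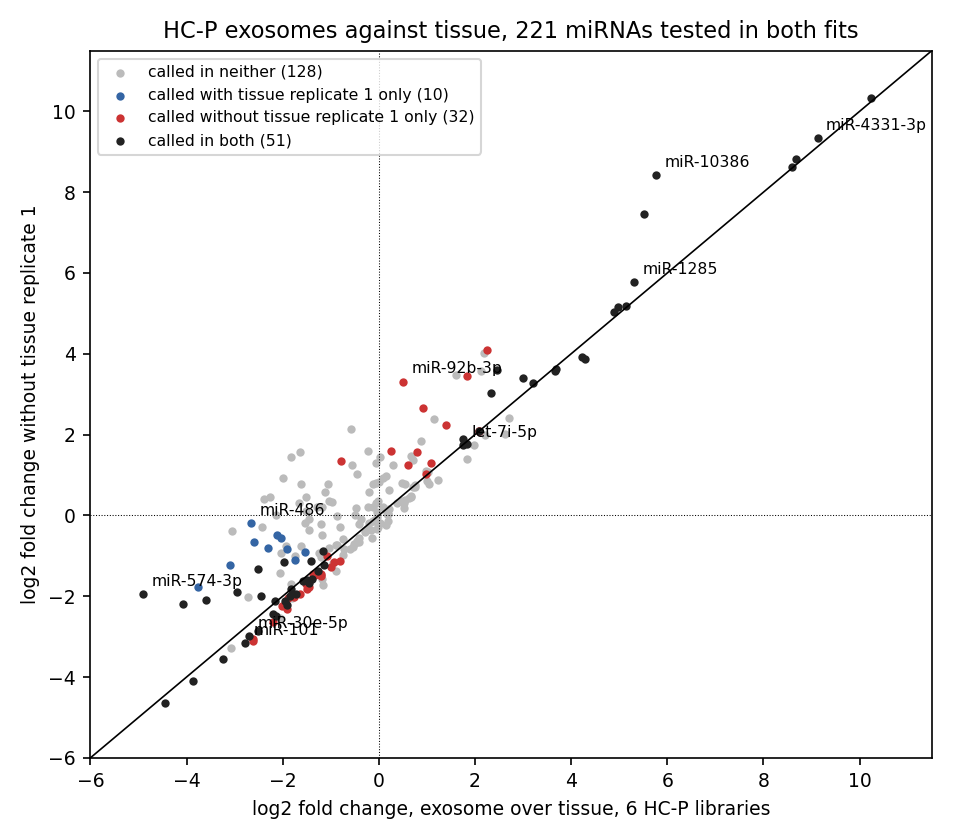
Log2 fold change of exosomes over tissue with all 6 HC-P libraries (horizontal axis) against the same without tissue replicate 1 (vertical axis), 1 point per miRNA tested in both fits (221), coloured by whether edgeR called it. The solid line marks equal values. miR-4331-3p and miR-1285 lie near the line and miR-10386 above it, as do the 10 miRNAs called lower with tissue replicate 1 only.

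Among the 20 miRNAs higher in exosomes, miR-4331-3p, the miRNA named in the title of the series, had the smallest adjusted p. It had 2, 1 and 1 reads in the tissue libraries and 84, 51 and 53 reads in the exosome libraries, or 0.314, 0.214 and 0.284 CPM against 77.1, 216 and 246 CPM. Every exosome library lay far above every tissue library. The log2 fold change was 9.13 ± 0.76 (approximate standard error, edgeR adjusted p = 2.11e-06) and 9.33 ± 0.76 without tissue replicate 1 (adjusted p = 8.57e-06). The tissue side rests on 4 reads in all. The entry thus passed the filter on low counts through other libraries and could not have been called lower. The same limit applies to the others of the 20 that are near 0 in tissue. The opposite strand of the same hairpin, miR-4331-5p, had 115, 0 and 54 reads in tissue and 12, 1 and 4 in exosomes, and its groups overlapped (log2 fold change 0.00 ± 1.34, adjusted p = 1). So the strand with most of the hairpin's reads was 5p in tissue replicates 1 and 3 and 3p in every exosome library, while tissue replicate 2 had 1 read of the hairpin.

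Several named miRNAs of low abundance in tissue followed. miR-10386 was at 22.9, 1.5 and 1.42 CPM in tissue and 390, 488 and 570 CPM in exosomes. The tissue values differ among themselves more than those of exosomes do, and the log2 fold change was 5.78 ± 1.15 (adjusted p = 0.00479) with all libraries and 8.43 ± 1.07 (adjusted p = 0.000196) without tissue replicate 1, which held 146 of its 158 tissue reads. miR-1285 was at 26.8, 12 and 18.5 CPM in tissue and 122, 746 and 1433 CPM in exosomes, a change of 5.32 ± 0.81 (adjusted p = 0.000738), or 5.78 ± 0.91 (adjusted p = 0.000999) without tissue replicate 1. miR-10390 rose by 5.14 ± 1.16 (adjusted p = 0.00824) on 13, 42 and 2 exosome reads, and miR-4332 by 4.28 ± 1.12 (adjusted p = 0.0162) on 5, 1 and 9, with 5.17 and 3.87 without tissue replicate 1. Each rests on 1 exosome library, since miR-10390 fell to 2.51 (adjusted p = 0.0888) without replicate 2 and miR-4332 to 2.65 (adjusted p = 0.113) without replicate 3.

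Of the predicted entries, novel_295, novel_453, novel_470 and novel_509 were higher in all 12 fits. novel_295 had no read in any tissue library and 141, 5 and 1 reads in the exosome libraries, at least 463-fold higher against a floor of 3 reads over the tissue group, but most of its reads come from exosome replicate 1. novel_453 had none in tissue and 20, 6 and 2 in exosomes, at least 88.2-fold higher. novel_509 had 1, 1 and 0 reads in tissue and 33, 22 and 22 in exosomes, a pooled ratio of 364 (exact 95% interval 97.3 to 3057, counting error only). The bounds became at least 260-fold and at least 49.6-fold, and the ratio 409 (71.3 to 16375), without tissue replicate 1. novel_470 had 2, 0 and 0 reads in tissue and 10, 0 and 3 in exosomes, and its groups overlapped. Its call ended without exosome replicate 1 (adjusted p = 0.104). Nothing in the files says what these predicted sequences are.

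The abundant miRNA of the set was let-7i-5p, a member of the let-7 family of growth-restraining miRNAs. It was at 1565, 1875 and 2687 CPM in tissue and 6281, 6461 and 7832 CPM in exosomes. The groups did not overlap, and the log2 fold change was 1.75 ± 0.42 (adjusted p = 0.012) with all libraries, 1.73 ± 0.37 (adjusted p = 0.00513) without tissue replicate 1, and between 1.72 and 2.95 over the 12 fits. It was called in each of the 6 fits that left out 1 HC-P library.

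Both miR-30e-3p and miR-30a-3p, the less abundant strands of hairpins of the miR-30 family, were also among the 20. miR-30e-3p was at 533, 905 and 777 CPM in tissue and 4820, 2077 and 941 CPM in exosomes, with a log2 fold change of 1.82 ± 0.55 (adjusted p = 0.0311). miR-30a-3p was at 174, 167 and 201 CPM in tissue and 1149, 420 and 260 CPM in exosomes, with 1.76 ± 0.54 (adjusted p = 0.0324). In both, exosome replicate 1 was the highest and replicate 3 came close to tissue, and without tissue replicate 1 the changes were 1.76 (adjusted p = 0.0471) and 1.89 (adjusted p = 0.0245). Without exosome replicate 1 they were 0.97 (adjusted p = 0.181) and 0.85 (adjusted p = 0.203), and neither call held without exosome replicate 2 (adjusted p = 0.0757 and 0.0608) or in the fit of the 6 HC-P libraries alone (adjusted p = 0.0887 and 0.106).

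Among the rest were 4 members of the epithelial list. Of these, miR-200b, which represses ZEB factors, was at 2.36, 2.14 and 1.42 CPM in tissue and 14.7, 76.3 and 107 CPM in exosomes (log2 fold change 4.97 ± 0.90, adjusted p = 0.00214). miR-182 was at 3.14, 4.71 and 3.98 CPM against 20.2, 80.5 and 55.6 CPM (3.67 ± 0.67, adjusted p = 0.00214), miR-205 rose by 4.90 ± 1.12 (adjusted p = 0.00857) on 10, 3 and 7 exosome reads, and miR-96-5p by 4.23 ± 1.06 (adjusted p = 0.0139) on 5, 3 and 2. These changes were 5.15, 3.58, 5.04 and 3.93 without tissue replicate 1, all still called, while the call of miR-96-5p ended without exosome replicate 2 (3.82, adjusted p = 0.0577). The hairpins of miR-182, miR-183 and miR-96 lie within 10 kb of each other in the RefSeq annotation, and miR-183 had 1.97 ± 0.74 (adjusted p = 0.0614). Its exosome values of 8.26, 12.7 and 18.5 CPM all lay above its tissue values of 1.41, 2.14 and 5.97 CPM.

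The vascular and blood cell miRNAs among the 20 were miR-221-3p, miR-221-5p, miR-223 and miR-363. miR-221-3p, expressed in endothelium and many other cells, was at 12.6, 7.27 and 7.10 CPM in tissue and 17.4, 72.1 and 134 CPM in exosomes (3.00 ± 0.74, adjusted p = 0.0139), and its other strand miR-221-5p rose by 3.69 ± 0.80 (adjusted p = 0.00643). miR-223, the miRNA of neutrophils and monocytes, was at 5.97, 6.20 and 5.11 CPM against 9.17, 76.3 and 83.5 CPM (3.22 ± 0.80, adjusted p = 0.0139). miR-363 rose by 2.08 ± 0.64 (adjusted p = 0.0336). The changes of these 4 were 3.39, 3.63, 3.28 and 2.10 without tissue replicate 1, all still called. The call of miR-221-3p ended without exosome replicate 3 (2.32, adjusted p = 0.06) and in the fit of the 6 HC-P libraries alone (adjusted p = 0.0535), and that of miR-223 without exosome replicate 2 (2.70, adjusted p = 0.0554). miR-363 lost its call without tissue replicate 3 (adjusted p = 0.0508), without exosome replicate 2 (adjusted p = 0.119), without exosome replicate 3 (adjusted p = 0.0957) and with the 6 libraries alone (adjusted p = 0.117). miR-222, the partner of miR-221, was called higher in 11 of the 12 fits, with 2.46 (adjusted p = 0.0396) and 3.59 (adjusted p = 0.00453) without tissue replicate 1. Other members of the same lists had values of the opposite sign, among them miR-126-5p (-1.91), miR-126-3p (-0.04), miR-144 (-2.62), miR-16 (-1.40) and miR-486 (-2.66), of which miR-16 and miR-486 passed the test. For miR-221-3p, miR-221-5p, miR-222, miR-223 and miR-363 the CPM in exosome replicate 1 was the lowest of the exosome libraries. In bulk RNA, fewer cells of a type and less RNA per cell cannot be told apart.

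Read counts of many of the 20 varied less between exosome libraries than depth did. Exosome replicate 1 was 9.05 times as deep as replicate 3 and 5.70 times as deep as replicate 2, yet miR-200b had 16, 18 and 23 reads, miR-221-5p 8, 8 and 7, miR-182 22, 19 and 12, and miR-1285 133, 176 and 309. For 13 of the 20 the CPM was lowest in exosome replicate 1, the deepest, against 82 of the 252 miRNAs tested (32.5%). Among the 20, 3 had fewer than 20 reads over all exosome libraries. The part of depth in these differences was not tested. let-7i-5p, miR-30e-3p and miR-30a-3p differ from the others in having at least 1408 exosome reads each.

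**Figure D2:**
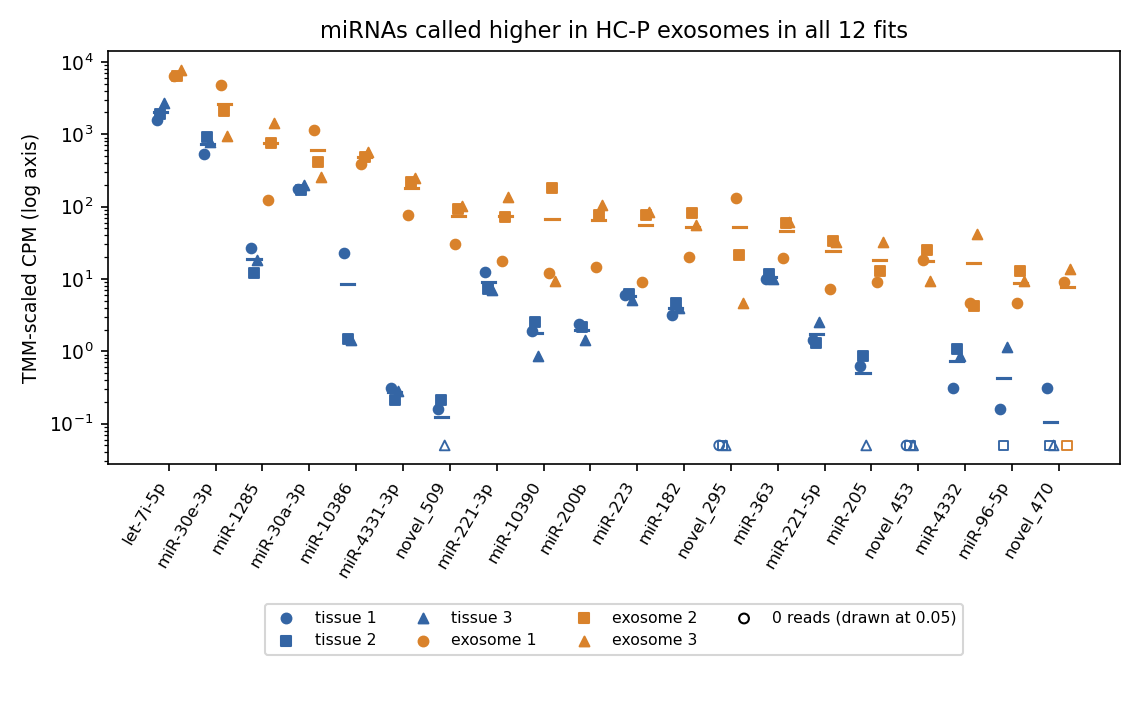
TMM-scaled CPM (log axis) in each HC-P library of the 20 miRNAs called higher in exosomes in all 12 fits, ordered by mean exosome level, with tissue in blue and exosomes in orange, and a bar at each group's mean. Open symbols are libraries with 0 reads. Tissue levels lie below 30 CPM for all but let-7i-5p, miR-30e-3p and miR-30a-3p, and exosome replicate 1 (orange circles) is the lowest exosome library in 13 of the 20.

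The miRNAs lower in exosomes under all 12 fits were miR-30e-5p, miR-101 and miR-450c-5p. miR-30e-5p, the main strand of its hairpin, was at 2804, 11677 and 12609 CPM in tissue and 1345, 1225 and 1623 CPM in exosomes. The exosome libraries lie close together and below every tissue library, with a log2 fold change of -2.69 ± 0.49 (adjusted p = 0.00214), and -3.0 ± 0.28 (adjusted p = 1.77e-05) without tissue replicate 1. miR-101, a repressor of the histone methyltransferase EZH2, was at 1408, 11579 and 10730 CPM in tissue and 1415, 865 and 1169 CPM in exosomes. Tissue replicate 1 lay among the exosome libraries, so the groups overlapped, and the change was -2.78 ± 0.60 (adjusted p = 0.00643), or -3.16 ± 0.37 (adjusted p = 0.000126) without that library. miR-450c-5p was at 226, 1222 and 2038 CPM in tissue and 171, 140 and 55.6 CPM in exosomes, a change of -3.23 ± 0.67 (adjusted p = 0.00555), or -3.54 ± 0.44 (adjusted p = 0.000196) without it. All 3 were called in each fit that left out 1 HC-P library, but their changes were smaller without tissue replicate 2 or 3, down to -1.98 for miR-30e-5p and -2.14 for miR-450c-5p without replicate 3 and to -1.97 for miR-101 without replicate 2. For all 3, tissue replicate 1 was the lowest of the tissue libraries.

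Close behind was miR-30a-5p, called lower in 10 of the 12 fits. It was at 8448, 9283 and 11497 CPM in tissue and 1752, 1734 and 3051 CPM in exosomes. The change was -2.16 ± 0.38 (adjusted p = 0.00214), and -2.12 ± 0.31 (adjusted p = 0.000635) without tissue replicate 1. Its tissue libraries were alike by CPM, but by share of reads replicate 1 was the highest, with 1.36% beside 0.667% and 0.605%. miR-7134-5p was called in 11 of the 12 and miR-365-3p in 10, but their size depended on tissue replicate 1. miR-7134-5p was at 3557, 495 and 376 CPM in tissue and 106, 93.3 and 60.3 CPM in exosomes, and its change went from -4.08 ± 0.83 (adjusted p = 0.00533) to -2.20 ± 0.56 (adjusted p = 0.0119). miR-574-3p, at 458, 25.9 and 19.9 CPM in tissue, went from -4.91 ± 1.18 (adjusted p = 0.012) to -1.95 ± 0.55 (adjusted p = 0.0175) on 5, 2 and 1 exosome reads.

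**Figure D3:**
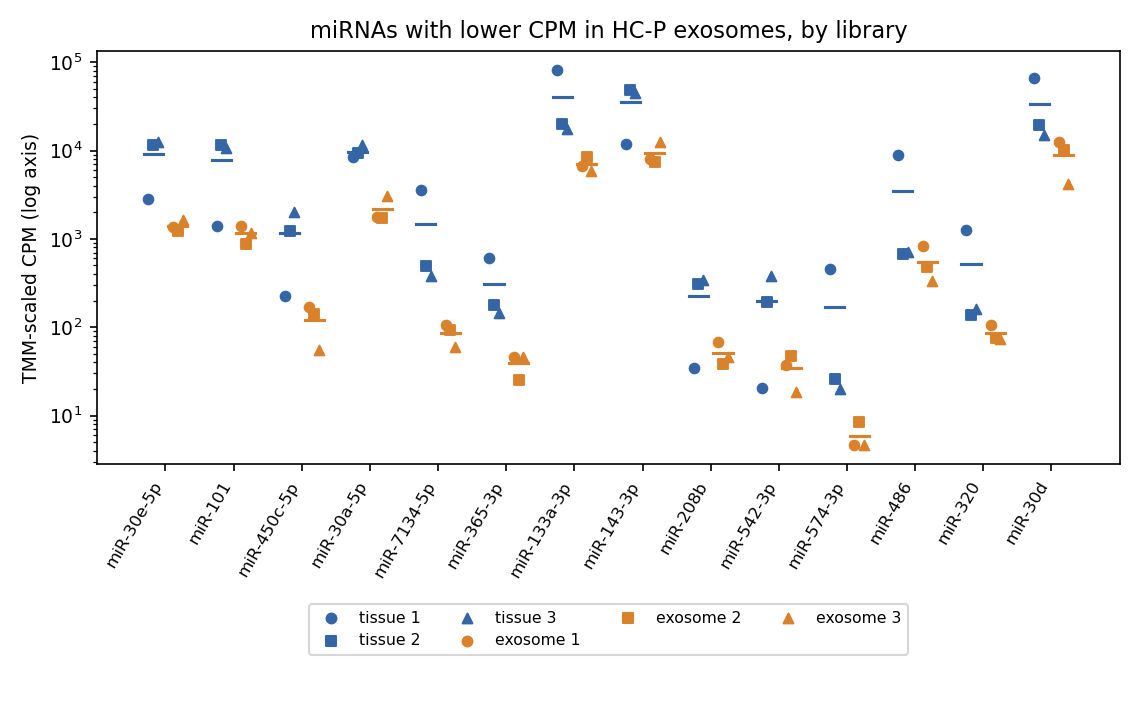
TMM-scaled CPM (log axis) in each HC-P library for 14 miRNAs with a lower exosome mean, tissue in blue and exosomes in orange, with a bar at each group's mean. For miR-30e-5p, miR-101, miR-450c-5p, miR-30a-5p, miR-143-3p, miR-208b and miR-542-3p tissue replicate 1 (blue circles) is the lowest tissue library, and for miR-7134-5p, miR-365-3p, miR-133a-3p, miR-574-3p, miR-486, miR-320 and miR-30d it is the highest.

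Tissue replicate 1 differed in a broad set of miRNAs, and its omission changed which miRNAs were called lower. Of the 70 tested miRNAs with at least 0.05% of the reads of tissue replicate 1 or of the mean of the other tissue libraries, 31 had a share at least 4-fold higher in replicate 1 and 5 a share at least 2-fold lower. The cut-offs differ, so these counts are not set against each other. Shares also depend on each other, and the smaller share of miR-1 in replicate 1 (27.4% beside 65.5% and 72.7%) raises the other shares there. The lower calls that ended without tissue replicate 1 were miR-1306-5p, miR-214-3p, miR-486, miR-320, miR-181a, miR-7134-3p, miR-139-5p, miR-30d, miR-148b-3p and miR-125b. In all 10 that library had the highest share of the tissue libraries. The same held for the kept lower calls miR-30a-5p and miR-378. How often this held over all tested miRNAs was not computed, here or for the gained calls below. These counts are thus not read as particular to those calls. miR-486, a muscle and erythroid miRNA, was at 9004, 673 and 714 CPM in tissue and 829, 483 and 329 CPM in exosomes, and its log2 fold change went from -2.66 ± 0.91 (adjusted p = 0.0447) to -0.20 ± 0.63 (adjusted p = 0.829). miR-320 went from -2.61 to -0.66 (adjusted p = 0.157) and miR-30d from -1.91 to -0.84 (adjusted p = 0.165).

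The 19 lower calls gained without tissue replicate 1 were miRNAs whose CPM was lowest in that library among the tissue libraries. By share of reads, the measure used for the calls that ended, it was the lowest in 14 of the 19. The 19 include miR-1, the most abundant miRNA of every library. miR-1 had shares of 27.4%, 65.5% and 72.7% in tissue and 43.0%, 48.3% and 35.8% in exosomes. Its change was -1.46 ± 0.68 (adjusted p = 0.114) with all libraries and -1.78 ± 0.57 (adjusted p = 0.0284) without tissue replicate 1. miR-499-5p, encoded in the intron of a slow myosin gene, went from -1.49 (adjusted p = 0.0864) to -1.82 (adjusted p = 0.00665), miR-144 from -2.62 (adjusted p = 0.104) to -3.12 (adjusted p = 0.0104), and miR-21-5p from -0.99 (adjusted p = 0.128) to -1.28 (adjusted p = 0.0187).

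In 9 of the 13 gained higher calls tissue replicate 1 was the highest tissue library by CPM. miR-92a was at 3306, 330 and 315 CPM in tissue and 1050, 683 and 538 CPM in exosomes, and its log2 fold change turned from -0.80 ± 0.72 (adjusted p = 0.415) to 1.36 ± 0.38 (adjusted p = 0.0175). let-7c went from 0.25 (adjusted p = 0.805) to 1.60 (adjusted p = 0.0184), let-7a from 0.60 (adjusted p = 0.324) to 1.25 (adjusted p = 0.0407), and miR-150, a lymphocyte miRNA, from 1.39 (adjusted p = 0.114) to 2.24 (adjusted p = 0.0172). miR-9 and miR-9-1 were also gained, but these entries carry identical counts and are 1 measurement.

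By share of miRNA reads, which needs no scaling beyond the library total, 4 of the 14 miRNAs that were among the 10 most abundant of either group had exosome shares that all exceeded the tissue shares, beside 18.7% of the 252 tested miRNAs. The share of the myogenic miRNA miR-206 was 7.34%, 6.38% and 6.65% in tissue, against 20.2%, 16.5% and 16.8% in exosomes. miR-26a took 3.97%, 3.17% and 2.70% against 8.53%, 6.70% and 8.85%. miR-148a-3p took 0.552%, 1.40% and 0.827% against 3.37%, 4.10% and 6.36%, and let-7f-5p 0.590%, 0.624% and 0.666% against 2.12%, 1.54% and 2.01%. For each the exact two-sided permutation p was 0.1, the smallest that 3 against 3 libraries allow, and 0.35 after adjustment over the 14. None of these 4 was called with TMM, where miR-206 had 0.53 ± 0.48 (adjusted p = 0.413) and miR-148a-3p 1.22 ± 0.56 (adjusted p = 0.109). With the reads of miR-1 left out, miR-206 still averaged 17.7% in tissue and 31.2% in exosomes, and miR-148a-3p 2.62% and 7.92%.

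The muscle-enriched list had 8 tested members, of which 3 were lower in exosomes with all libraries (miR-133a-3p, miR-208b and miR-486) and 4 without tissue replicate 1 (miR-1, miR-133a-3p, miR-208b and miR-499-5p), and none were higher in either fit. The share of all tested miRNAs called lower, to be read beside these and the list counts that follow, was 16.7% with all libraries and 21.7% without tissue replicate 1, and the share called higher 9.13% and 15.8%. These list counts are those of TMM. With all libraries, library totals called only 5 miRNAs lower and upper quartiles 11. The median log2 fold change of the muscle-enriched list was -1.47 against -0.70 for all miRNAs, and -1.02 against -0.08 without tissue replicate 1. Over the 12 fits it ran from -1.47 to 0.12, so its sign turned with the scaling, and it stayed 0.38 to 0.97 below the median of all miRNAs. miR-208b, from an intron of the slow myosin gene MYH7, was at 34.4, 311 and 339 CPM in tissue and 67.9, 38.2 and 46.4 CPM in exosomes, with -2.14 ± 0.73 (adjusted p = 0.0447) and -2.50 ± 0.43 (adjusted p = 0.00176) without tissue replicate 1. Tissue replicate 1 lies below every exosome library and the other tissue libraries lie above them all, and the call ended when any other HC-P library was left out (adjusted p from 0.0814 to 0.206). miR-133a-3p, at 82519, 19802 and 17576 CPM against 6654, 8419 and 5843 CPM, was lower in both fits (-2.52 and -1.32).

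Of the lists of other cell types, all 5 tested epithelial members had positive values in both fits, with 4 called and a median of 4.23, or 3.93 without tissue replicate 1. The list names 10 miRNAs, with 7 entries in the read counts. Of these, miR-141 and miR-429 were not tested, and 1 of the 7 had tissue reads but no exosome read. Entries near 0 in tissue pass the filter through their exosome reads and so could not have been called lower. The whole list took at most 0.05% of the reads of any exosome library. The endothelial list parted within itself, with miR-221-3p, miR-221-5p and miR-222 higher in both fits, miR-126-5p at -1.91 (adjusted p = 0.0621) and lower without tissue replicate 1 (-2.30, adjusted p = 0.00409), and miR-126-3p, the main endothelial strand, at -0.04 ± 0.49 (adjusted p = 0.975). Of 7 myeloid or lymphoid miRNAs, miR-223 was higher with all libraries and miR-223, miR-146a-5p and miR-150 without tissue replicate 1. The erythroid list of 6 had miR-363 higher and miR-16 and miR-486 lower, or miR-16 and miR-144 lower without that library, while the red cell miRNA miR-451 had 0.15 ± 0.55 (adjusted p = 0.879).

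Among fibroblast and mesenchymal miRNAs, 2 of 9 were lower (miR-214-3p and miR-22-3p) and 3 of 9 without tissue replicate 1 (miR-199a-5p, miR-21-5p and miR-22-3p), near the shares over all miRNAs. In the smooth muscle list of 4, miR-143-3p was lower in both fits, at 11719, 48980 and 44346 CPM in tissue and 8016, 7452 and 12362 CPM in exosomes (-1.92 ± 0.55, adjusted p = 0.0249). That call ended when any library other than tissue replicate 1 was left out (adjusted p from 0.0519 to 0.132). Neural entries had no call with all 6 libraries and the equal pair miR-9 and miR-9-1 without tissue replicate 1. The liver and plasma list of 5 had no call in either fit. Its hepatocyte miRNA miR-122-5p was at 149, 506 and 400 CPM in tissue and 505, 1827 and 4521 CPM in exosomes (2.70 ± 1.10, adjusted p = 0.0773), the lowest exosome value falling just under the highest tissue value. The single tested adipocyte entry, miR-196a, had 0.08. Of the predicted entries 10 of 110 were tested. The 5 called higher in both fits include 4 with at most 2 tissue reads in all, which passed the filter through their exosome reads and so could not have been called lower.

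The slow-fibre pair miR-208b and miR-499-5p had 1 lower with all libraries and both lower without tissue replicate 1.

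In the miR-30 family all 10 entries were tested. The 3p strands of miR-30a and miR-30e passed as higher in both fits, and miR-30a-5p, miR-30b-5p, miR-30d and miR-30e-5p were lower, with miR-30c-5p in the place of miR-30d without tissue replicate 1. In the let-7 family of 10, let-7i-5p was higher with all libraries and let-7a, let-7c, let-7d-5p and let-7i-5p without tissue replicate 1, with medians of 0.63 and 1.05, and the family's summed share was 1.23% to 2.71% in tissue and 4.12% to 5.75% in exosomes. All 3 tested miR-29 members, which repress collagens and other matrix genes, had negative values, with 2 lower (miR-29a-3p and miR-29c) and all 3 lower without tissue replicate 1. Of the 12 fits, miR-29a-3p was lower in 6 and miR-29c in 5. The list of miR-424, miR-503, miR-450 and miR-542 forms, which restrain the cell cycle, had 4 of 8 lower (miR-424-5p, miR-450c-5p, miR-542-3p and miR-542-5p) and 5 of 7 without tissue replicate 1, with a median of -1.86 and -1.50 (-1.55 with all libraries where the member without exosome reads is set at its bound). Of its hairpins, those of miR-450a, miR-450b, miR-450c and miR-542 lie in 1 stretch with gaps of at most 10 kb in RefSeq. With all libraries 3 of the 5 tested miRNAs of that stretch were lower, and miR-450a and miR-450b-5p were not called. Without tissue replicate 1 all 4 tested there were lower, from -3.54 to -1.14. miR-542-5p had 43, 27 and 36 reads in tissue and none in exosomes, at least 3.74-fold lower, and so could not have been called higher. miR-424-5p rests on 2 exosome reads in all. Its opposite strand miR-424-3p had 0.71, or 1.38 without tissue replicate 1, and was called in neither fit.

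The miR-15, miR-16, miR-195 and miR-497 list had miR-16 and miR-195 lower in both fits, and both miR-378 and miR-378b-3p, of the miR-378 group linked to mitochondrial metabolism, were lower in both. These calls depended on the scaling. Of the 12 fits, miR-16 was lower in 5, miR-195 in 6, miR-378 in 7 and miR-378b-3p in 5. By share of reads miR-378 overlapped between the groups, with a mean difference of -0.052 percentage points without tissue replicate 1. Of the 8 forms of miR-23, miR-27 and miR-24, miR-24-3p and miR-27b-3p were lower (in 6 and 8 of the 12 fits), and also miR-24-1-5p without tissue replicate 1. In the miR-17-92 list of 7, miR-363 was higher with all libraries, while without tissue replicate 1 miR-92a, miR-92b-3p and miR-363 were higher and miR-19b was lower. miR-125b, miR-148b-3p and miR-181a were the members of the miR-10, miR-148 and miR-181 lists called lower, and none of the 3 was called without tissue replicate 1, where miR-99a-5p was higher. The miR-26 list had no call in either fit.

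**Figure D4:**
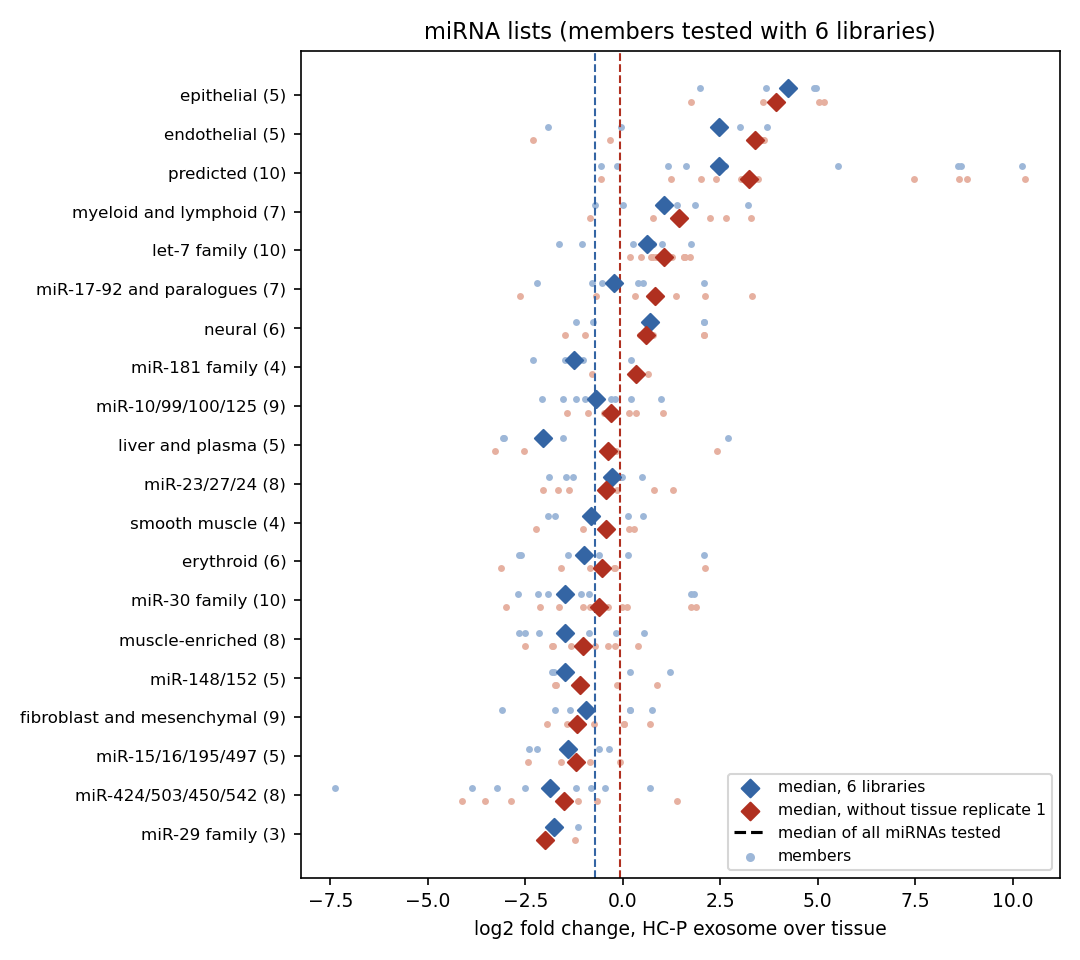
Log2 fold change of exosomes over tissue for the tested members (small points) and the median (diamonds) of each list with at least 3 tested members, with all 6 HC-P libraries in blue and without tissue replicate 1 in red. Dashed lines mark the medians of all miRNAs tested, -0.70 and -0.08. The epithelial median lies highest in both fits, and the lowest is that of the liver and plasma list with all 6 libraries and of the miR-29 family without tissue replicate 1.

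The strands of the same hairpin can be compared within a library, without any scaling between libraries. Among 43 hairpins with both arms named and at least 100 reads of an arm in each group, the 3p over 5p read ratio (log2) did not overlap between exosomes and tissue in 23, with 15 toward 3p and 8 toward 5p in exosomes. In 8 of the 43 the minor arm had no read in any exosome library. There the ratio, its direction and any gap between the groups can be set by the 0.5 reads added and by depth. For miR-381 and miR-186, counted among the 23, the minor arm had no read in any of the 6 libraries. The 28 hairpins with at least 10 reads of each arm in each group are less exposed to this, a rule that was put first after the values were seen. In 13 of the 28 the groups did not overlap, 9 toward 3p and 4 toward 5p. Leaving out a library cannot end such a gap, so the fit without tissue replicate 1 is no check on these 13. Without that library 19 of the 28 did not overlap. The p-values that follow are those of the 13 with all 6 libraries. Each has an exact permutation p of 0.1, the smallest possible, and 0.215 after adjustment over the 28.

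miR-30e showed the largest shift of the 28. It had 17860, 54593 and 44388 reads of 5p and 3396, 4233 and 2735 reads of 3p in tissue, but 1466, 289 and 350 reads of 5p and 5254, 490 and 203 reads of 3p in exosomes. The log2 ratio of 3p to 5p went from -3.37 ± 0.86 (SD, n = 3) in tissue to 0.61 ± 1.32 in exosomes, so the 3p strand led in exosome replicates 1 and 2 and the 5p strand in replicate 3 and in all tissue libraries. miR-30a went from -5.74 ± 0.12 to -2.06 ± 1.47, with 1253, 99 and 56 reads of 3p in exosomes. For both hairpins exosome replicate 1 had the highest ratio. The other miR-30 hairpins among the 28, miR-30b and miR-30c, overlapped between the groups, with differences of 0.39 and 0.11, and miR-30b did not overlap without tissue replicate 1, with a difference of 1.39.

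miR-7134 went from 2.40 ± 0.22 to 4.17 ± 0.17, with every exosome library above every tissue library. Tissue replicate 1, which held far more miR-7134 than the other tissue libraries, had a ratio of 2.20 beside 2.38 and 2.64, so the ratio did not set it apart as its level did. miR-199a went from 0.15 ± 0.22 to 1.78 ± 0.41 and miR-199b from 0.82 ± 0.16 to 2.09 ± 0.58, but their 3p entries carry identical counts. miR-126 went from 5.93 ± 0.64 to 7.49 ± 0.18, and miR-145 from -3.89 ± 1.86 to -1.33 ± 1.31, a difference of 2.56 that was 1.49 without tissue replicate 1. miR-148a and miR-151 also shifted toward 3p, with only 23 and 49 reads of 5p over the exosome libraries. Toward 5p shifted miR-22, from 5.85 ± 0.56 to 3.31 ± 0.97, miR-133a, from 6.4 ± 1.99 to 4.31 ± 0.18, miR-425 and miR-7, of which the last pair had 20 and 16 reads of 3p over the exosome libraries. Without tissue replicate 1 the difference for miR-133a was -0.95 in place of -2.10.

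**Figure D5:**
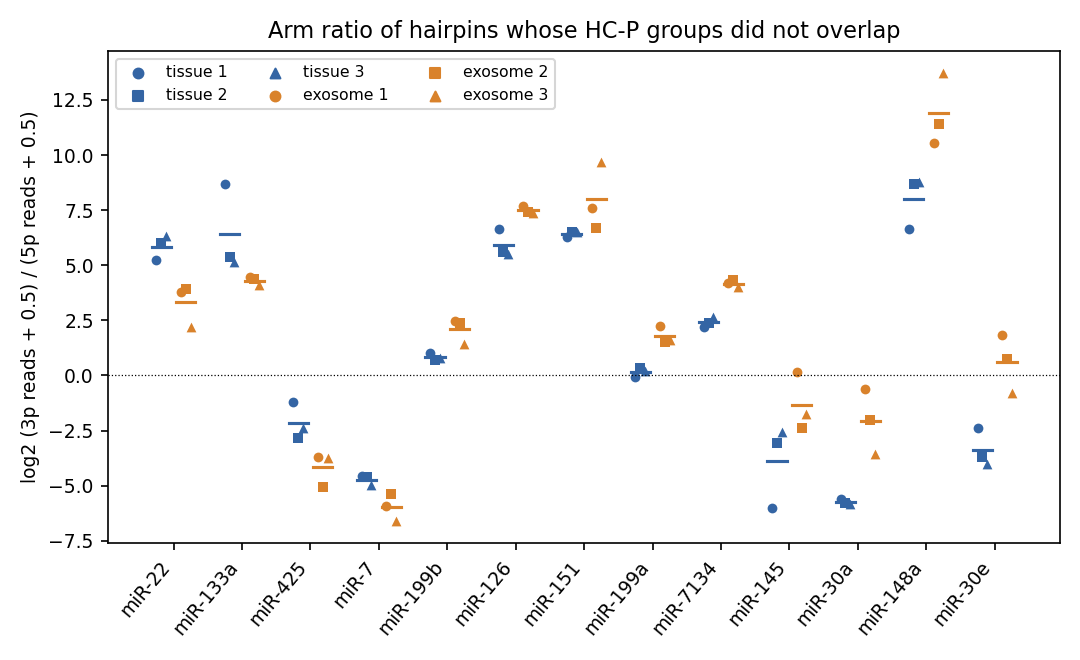
Log2 of 3p over 5p reads (0.5 added to each) in each HC-P library for the 13 hairpins with at least 10 reads of each arm in each group whose groups did not overlap, tissue in blue and exosomes in orange, with a bar at each mean. The dotted line marks equal arms. miR-30e moves from below it in tissue to about it in exosomes.

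The number of different miRNAs was compared at equal depth. At 106040 reads, the depth of the shallowest library, 232, 184 and 178 miRNAs were expected in tissue and 210, 221 and 241 in exosomes. The groups overlapped through tissue replicate 1 and differed by 25.5 miRNAs (exact two-sided permutation p = 0.3). Without that library both remaining tissue values lie below every exosome value.

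Against the same contrast in HC-L muscle, 0 of 252 miRNAs differed in their exosome-tissue difference (edgeR adjusted p under 0.05, percent called 0). Unadjusted, 8 had p under 0.05, and DESeq2 also called 0, with 7 unadjusted. The smallest adjusted p was that of miR-4331-3p (0.712, unadjusted p = 0.00283), whose log2 fold change was 9.13 in HC-P and 5.93 in HC-L. All 23 miRNAs called in all 12 fits had the same sign in HC-L. The share with the same sign over all 252 was not computed, so this is not read as particular to the 23. For entries without a tissue read in HC-P, such as novel_295 and novel_453, the HC-P sign could not have been negative. Of the 23, miR-4331-3p and miR-10386 had an unadjusted p under 0.05 in the edgeR test of the difference between the muscles. For miR-10386 the HC-L value was the larger, 9.12 against 5.78. miR-30e-5p had -2.69 in HC-P and -3.14 in HC-L, and miR-101 -2.78 and -3.07.

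The authors' deposited table for this comparison lists 80 miRNAs, of which 34 have an adjusted p under 0.05, with 26 higher and 8 lower in exosomes. Of these 34, 29 were called here in the same direction, which is 85.3% of the authors' calls and 44.6% of the 65. Without tissue replicate 1, 31 were shared, or 91.2% of theirs and 37.3% of the 83. All 8 lower calls of the authors' deposited table were among the lower calls here in both fits.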

How the data were processed

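Small RNA libraries of HC-P tissue and exosomes (3 each), made with TruSeq Small RNA kits per the labels' protocols, were analysed from the deposited read counts per mature miRNA. The deposited TPM values are the counts scaled by each library's total, as checked on the table, and were not tested. The authors' deposited comparison table gives a group signal (a value per group headed read count, not whole) and, per miRNA, a log2 fold change with its p-value, raw and adjusted, which served only for the overlap of calls. For the aligner, genome build, miRNA database release, counting rule and test of the authors, the sources used here give no name. No miRNA sequence was at hand, and none is printed.

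In R 4.3.3, edgeR 4.0.16 was run on the counts of all 12 small RNA libraries with a coefficient per group. miRNAs were kept by filterByExpr, TMM factors were computed on those kept, and the quasi-likelihood test gave p-values adjusted by the Benjamini-Hochberg method over the 252 tested. The filter was applied again in each fit with a library left out, so the number tested differs. The factors were first computed before the filter and then after it, once both results had been seen. The ± after an edgeR log2 fold change is an approximate standard error, the size of the change divided by the square root of the test's F statistic. It says little where a group has almost no reads. DESeq2 1.42.0 was the other tool. CPM values are TMM-scaled, except those given for a count of 3 reads, which use library totals alone. Where a group had no read, folds use a floor of 3 reads over the group. The intervals are exact 95% binomial ones, and like the floors they describe counting error alone, as reads without molecular identifiers are not independent molecules. Shares, arm ratios and miRNA numbers at equal depth (hypergeometric expectation) were compared by exact permutation tests over libraries.

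Named miRNAs are the 10 called miRNAs that changed most, up and down, without overlap of the groups and with 50 CPM or more as the mean of a group, with and without tissue replicate 1, the 10 most abundant of either group, the list members and miR-4331-3p. The members, lists and rules were chosen with earlier results of these data known. miRNAs outside the rule, such as those called in all 12 fits, were named after their values were seen. RefSeq Sscrofa11.1 was used only for which hairpins neighbour each other, and 282 of the 355 named entries were placed. Same-numbered tissue and exosome libraries deviated from their group means with correlations of 0.112, 0.0264 and 0.149, and the other pairs with -0.150 to 0.123. Such values cannot show whether the libraries were paired. The main fits are unpaired, and fits with a replicate block are given below.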

Additional observations from a re-analysis of the deposited data

How the results depend on the processing

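Of 65 calls (23 higher, 42 lower), the counts moved by over 1.5 times under these alternatives, and the cause was not tested. Library totals gave 36 calls with 5 lower, upper quartiles 41 with 11 lower, RLE 22 lower, and totals without the 3 most abundant miRNAs 39 higher and 10 lower. DESeq2 gave 35 higher, and the 6 HC-P libraries alone gave 26 with 10 lower, where fewer samples enter. Without tissue replicate 1, totals gave 58 higher and 5 lower, DESeq2 48 higher, RLE 38 higher, and totals without the 3 most abundant miRNAs 48 higher and 21 lower. Calls with 1 library left out ranged from 31 to 83, higher calls from 16 to 35 and lower calls from 15 to 48. Without any filter 5 miRNAs differed between the muscles, against 0. Non-overlapping arm ratios numbered 13 of 28 with 10 reads of each arm, against 23 of 43.

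TMM factors computed before the filter gave 58 calls, within 1.5 times. The replicate block gave 16 calls (12 higher, 4 lower) over the 6 libraries, against 26 without it, and 57 over all 12. With the block over the 6 libraries miR-450c-5p lost its call (-2.88, edgeR adjusted p = 0.0628), while miR-30e-5p kept it (-2.42, adjusted p = 0.0355). Both were called with the block over all 12 (adjusted p = 0.0381 and 0.00843). Same-numbered libraries correlated with r of 0.112, 0.0264 and 0.149, which cannot show whether they were pairs.

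The sign turned for miR-320 (0.43), miR-30d (0.17) and miR-7134-3p (0.59) with library totals without tissue replicate 1, for miR-7134-3p also (0.074) with totals that leave out the 3 most abundant miRNAs, and for miR-21-5p with totals (0.15). miR-126-3p turned to 1.02 with totals, 0.27 with RLE and DESeq2, 0.69 when the 3 most abundant miRNAs were left out of the totals, and 0.35 with upper quartiles. It had 0.85 and 0.27 without tissue replicate 1 with the 2 kinds of totals, and 0.20 and 0.18 with the replicate block over 6 and 12 libraries. With a library left out miR-126-3p ranged from -0.34 to 0.66, miR-10b from -0.16 to 0.73 and miR-128 from -0.75 to 1.31, both lowest without exosome replicate 1. For single miRNAs 908 comparisons kept direction and call, 182 lost the call and 35 gained it. Exosome depth limits what low values show, since 3 reads are up to 28.3 CPM there by library totals, before TMM scaling.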
